A study of Mus musculus with 20 samples.

Results

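Total RNA of cultured mouse fetal liver macrophages was compared between hypoxia and normoxia in 5 pairs of libraries, each pair grown from the cells of 1 animal. Pairs were formed by the animal number that ends each label, over both genotypes together, and they make up 10 of the 20 libraries of the series. The other 10 libraries hold RNA bound to EGFP-tagged ribosomes from the same lysates and served as a second readout. Hypoxia cultures were kept at 1% O2 and normoxia cultures at 20% O2, for 18 h and on separate plates. Csf1r-iCre was combined with HuR fl/fl in the animals labelled as knockouts (KO-179, KO-94, KO-84). It was combined with HuR +/+ in the controls WT-280 and WT-281. All 5 animals expressed ribosomal protein L10a fused to EGFP, so the control cultures carried the recombinase and the fusion protein as well. Csf1r-iCre expresses Cre recombinase from the promoter of the macrophage growth factor receptor gene Csf1r, and HuR is the RNA-binding protein encoded by Elavl1. Cells were taken at E14.5 by the design text and at E14.4 by the growth protocol (days of gestation), and were grown for 6 days in medium conditioned by L cells, which secrete the macrophage growth factor CSF1.

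Cells sense low oxygen mainly through the prolyl hydroxylases (Egln1 to Egln3), which use oxygen to mark the hypoxia-inducible factors HIF-1α and HIF-2α for degradation. When oxygen falls, the factors persist, pair with ARNT and bind short hypoxia response elements near genes for glycolysis, mitophagy, pH control and blood vessel growth. Macrophages meet low oxygen in wounds, infected tissue and tumours, where they rely on glycolysis. Immediate early genes such as Fos and Nr4a1 answer growth factors, cytokines and stress within minutes, and many of their mRNAs carry AU-rich elements that bring fast decay. HuR binds and stabilises many such mRNAs.

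Values are given as TPM (transcripts per 1000000), a share of all transcripts of a library, so each change is relative to the other transcripts of that library. These are bulk libraries, in which fewer cells of a type and less RNA per cell cannot be told apart. Per-animal values follow the order KO-84, KO-94, KO-179, WT-280, WT-281 throughout. Changes are hypoxia minus normoxia on the log2(TPM + 1) scale, with the standard error (SE) of the paired limma fit, and this scale understates the change of genes at low TPM. In that fit 0 of 13901 genes passed an adjusted p of 0.05 (0%), and the smallest adjusted p was 0.115, for Rnasek. At an unadjusted p under 0.05 there were 997 genes (7.17%), of which 318 were higher in hypoxia (2.29%) and 679 lower (4.88%), where evenly spread p-values would give 695. Over all genes tested, 36.95% were higher and 63.05% lower on average. The splits of the lists in total RNA below are to be read against these shares. The median gene stood at −0.13, and at −0.01 after quantile normalization, which turned the split at an unadjusted p under 0.05 to 460 higher and 396 lower. Centring each library on its median gave 775 higher and 284 lower. No gene or list below is therefore a passing result, and each is given as values with the number of pairs that share its direction. Higher in all 5 pairs were 335 genes (2.41%), and lower in all 5 were 976 (7.02%), or 546 (3.93%) and 588 (4.23%) after quantile normalization.

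**Figure D1:**
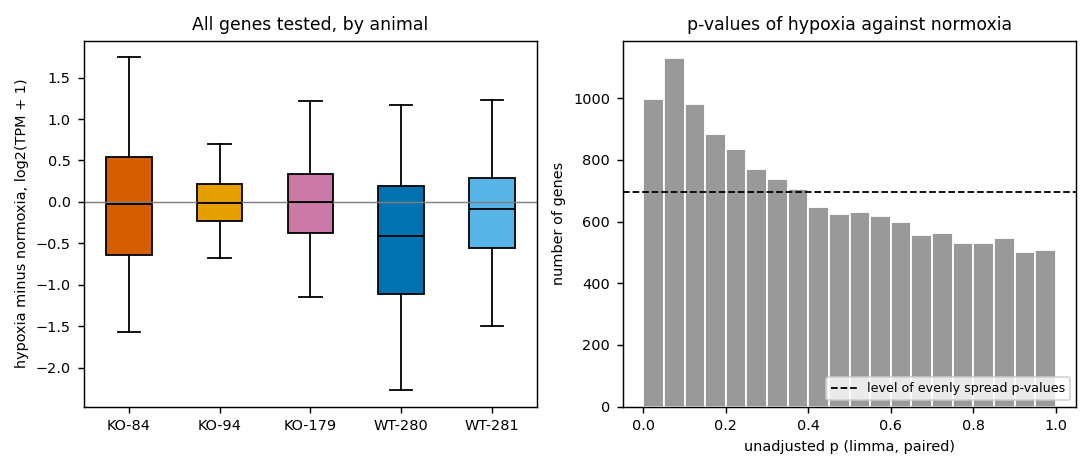
Left, hypoxia minus normoxia on the log2(TPM + 1) scale for the 13901 genes tested, by animal. Boxes span the quartiles with the median as a line. Whiskers cover most, but not all, of the genes outside each box. Right, the number of genes in each band of unadjusted limma p, with the level that evenly spread p-values would give as a dashed line. The box of WT-280 is shifted down, with its median at −0.42, while the medians of the other 4 animals lie between −0.08 and 0.

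Libraries differed beyond their oxygen. Between 10364 and 12402 genes reached 1 TPM, with 11625 ± 765 in hypoxia and 11955 ± 408 in normoxia (SD, n = 5 each; exact sign-flip permutation p = 0.75, two-sided, smallest possible 0.0625). The hypoxia library of WT-280 had the fewest, and the difference of −330 became 73.8 without that animal. It also had the lowest share of mitochondrially encoded mRNA (1.26%), while the normoxia library of KO-84 had the highest (4.75%). Without WT-280 the median gene stood at −0.04, and without KO-84 at −0.14. The macrophage genes Lyz2 (lysozyme), Cd68 (a lysosomal glycoprotein), Adgre1 (the surface antigen F4/80) and Csf1r were present in every library, with at least 3199.9 TPM of Lyz2 and 52.6 TPM of Csf1r. Most defining markers of erythroid cells, lymphocytes and granulocytes were at or near 0, as described with the cell type markers.

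Elavl1, the gene targeted in the knockout, measured 29.2, 18.3, 1.69, 20.8 and 2.07 TPM in hypoxia and 40.1, 154, 43.04, 47.3 and 25.9 TPM in normoxia. It was lower in hypoxia in all 5 pairs, with the largest drops in KO-94, KO-179 and WT-281, and only the hypoxia value of KO-84 lay above the lowest normoxia value. The change was −2.35 ± 0.49 (SE; limma adjusted p = 0.651), against a median gene at −0.13. Between genotypes the values did not follow the labels: in normoxia the knockout-labelled animals measured 40.1, 154 and 43.04 TPM and the controls 47.3 and 25.9 TPM. Which exons are floxed is not stated in the labels and 1 value covers the whole gene, so the level checks neither the deletion nor its absence, and the animals are called knockout-labelled throughout. Ribosome-bound Elavl1 measured 0.760, 19.6, 5.998, 8.25 and 1.14 TPM in hypoxia and 25.98, 72.1, 3.99, 40.4 and 2.88 TPM in normoxia, lower in 4 of 5 pairs (−1.66 ± 0.57; limma adjusted p = 0.888).

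HIF targets outside glycolysis lay mostly on the higher side. Of 33 members tested, 24 were higher and 9 lower on average (median 0.35, or 0.50 after quantile normalization), and 9 were higher in all 5 pairs while 0 were lower in all 5 (2.41% and 7.02% of all genes). At an unadjusted limma p under 0.05 there were 8 higher and 1 lower (2.29% and 4.88% of all genes). Without WT-280 the split was 26 to 7 (median 0.46) and without KO-84 it was 22 to 11 (0.27). The list median was above 0 in 4 animals and below 0 in WT-280 (0.34, 0.24, 0.40, −0.20 and 0.49). The 9 members higher in every pair were Ankrd37, Fam162a, Bnip3, Arg1, Mxi1, Bnip3l, Pdk1, Ero1l and P4ha2.

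The promoters of the leading members are shown because hypoxia response elements are the letters through which the HIF complex is known to reach such genes. Windows span 250 bases before to 50 after the start in RefSeq (GRCm38.p6, gene strand), with matches to ACGTG or GCGTG on either strand (CACGT or CACGC when read on the other) in capitals. Overlapping matches are counted separately. Ankrd37 lies at chr8:45999801-46000100 (minus strand, 4 matches), Bnip3 at chr7:138909457-138909756 (minus, 5) and Fam162a at chr16:36071512-36071811 (minus, 6).
Ankrd37: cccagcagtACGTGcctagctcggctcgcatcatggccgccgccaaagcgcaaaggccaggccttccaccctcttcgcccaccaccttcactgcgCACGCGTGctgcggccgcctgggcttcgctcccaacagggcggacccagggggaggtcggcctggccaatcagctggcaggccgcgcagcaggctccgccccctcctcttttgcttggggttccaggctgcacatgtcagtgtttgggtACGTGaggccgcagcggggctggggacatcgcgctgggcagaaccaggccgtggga
Bnip3: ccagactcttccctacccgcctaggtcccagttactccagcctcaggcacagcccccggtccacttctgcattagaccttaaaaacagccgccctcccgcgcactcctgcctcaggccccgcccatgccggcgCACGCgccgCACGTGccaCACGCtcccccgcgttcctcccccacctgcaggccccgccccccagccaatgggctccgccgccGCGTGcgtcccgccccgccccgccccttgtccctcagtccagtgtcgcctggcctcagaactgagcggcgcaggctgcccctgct
Fam162a: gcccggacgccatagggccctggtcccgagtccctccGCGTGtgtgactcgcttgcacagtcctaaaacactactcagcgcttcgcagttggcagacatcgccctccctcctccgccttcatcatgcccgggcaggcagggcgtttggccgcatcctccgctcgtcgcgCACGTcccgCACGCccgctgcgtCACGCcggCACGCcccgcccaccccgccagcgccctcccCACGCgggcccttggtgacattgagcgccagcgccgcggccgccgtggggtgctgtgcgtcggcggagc
The matches of Ankrd37 are spread over its window, while most of those of Bnip3 and Fam162a are gathered in short GC-rich stretches. All 25 HIF targets with a window in the table held a match (100%), as did 21 of 25 glycolysis genes (84%) and 16 of 20 immediate early genes (80%), which lay on the lower side. Of the genes tested that could be matched, 6334 of 9368 held one (67.6%), and 46.7% of all genes with a window did. A gene counts here if any of its windows holds a match. A match is a description of letters and not a bound site.

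Ankrd37, an ankyrin-repeat protein gene known as a HIF-1 target, measured 63.5, 70.7, 68.9, 84.8 and 24.8 TPM in hypoxia and 9.87, 34.05, 23.4, 20.996 and 5.19 TPM in normoxia. Its groups overlapped in WT-281 alone, whose hypoxia value lay below the normoxia value of KO-94. On average it stood at 62.6 ± 22.5 TPM in hypoxia and 18.7 ± 11.4 TPM in normoxia (SD, n = 5 each), a change of 1.83 ± 0.25 (SE; limma adjusted p = 0.297), and the changes by animal were 2.57, 1.03, 1.52, 1.96 and 2.06. The gene overlaps Ufsp2, which changed by −0.10, and whether counting used the strand is not stated. Fam162a, a mitochondrial protein linked to cell death in hypoxia, measured 478, 253, 523, 1368 and 558 TPM in hypoxia and 212, 188, 324, 546 and 233 TPM in normoxia. The highest value was the hypoxia library of WT-280 and the smallest change that of KO-94 (changes by animal 1.17, 0.43, 0.69, 1.32 and 1.26). Its fitted change was 0.97 ± 0.16 (SE; limma adjusted p = 0.408).

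The mitophagy receptors Bnip3 and Bnip3l, which sit in the outer mitochondrial membrane and call in the autophagy machinery, were both higher in all 5 pairs. Bnip3 measured 152, 260.3, 159.9, 326 and 142 TPM in hypoxia and 78.5, 205, 108, 154 and 69.6 TPM in normoxia, and its groups overlapped because KO-94 and WT-280 stood above the other animals in both. The change was 0.79 ± 0.16 (SE; limma adjusted p = 0.651). Bnip3l measured 89.1, 111, 39.8, 96.2 and 90.6 TPM in hypoxia and 31.9, 109, 33.9, 71.9 and 47.6 TPM in normoxia (0.61 ± 0.23), with KO-94 again near level. Of the 22 autophagy and mitophagy genes tested these were the members higher in all 5 pairs (2.41% of all genes). In all 5 pairs 0 were lower (7.02% of all genes), and the list's median was −0.08, or 0.02 after quantile normalization. Sqstm1, the autophagy receptor p62, was lower in 4 of 5 pairs (−0.65 ± 0.21; 412 against 583 TPM on average in hypoxia and normoxia).

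Arg1, the arginase that competes with nitric oxide synthase for arginine and marks alternative activation, measured 35.8, 42.3, 15.5, 42.7 and 8.85 TPM in hypoxia and 33.3, 26.6, 3.05, 5.94 and 1.23 TPM in normoxia. KO-84 and KO-94 were already high in normoxia and moved little, while KO-179 and both controls started low (changes 0.10, 0.65, 2.02, 2.65 and 2.14). The fitted change was 1.52 ± 0.39 (SE; limma adjusted p = 0.651), and the difference of this change between knockout-labelled and control animals was −1.47 ± 0.66 (SE; limma adjusted p = 0.764). The other 9 alternative activation genes tested split into 4 higher and 5 lower, with a list median of −0.07 (0.01 after quantile normalization) including Arg1, and 0.09 without WT-280. Among the HIF targets that act back on the pathway, the prolyl hydroxylase gene Egln1 measured 44.1, 76.7, 44.97, 30.6 and 40.3 TPM in hypoxia and 26.6, 61.4, 33.9, 32.8 and 18.4 TPM in normoxia, higher in every animal but WT-280 (0.48 ± 0.22). Pdk1, the kinase that closes pyruvate dehydrogenase, averaged 28.2 against 18.3 TPM in hypoxia and normoxia (0.63), and Mxi1, an antagonist of MYC, 21.7 against 13.5 TPM (0.65). Ero1l, which oxidises protein disulfide isomerase, averaged 64.5 against 47.1 TPM (0.38) and P4ha2, a collagen prolyl hydroxylase, 15.6 against 11.04 TPM (0.50). Hilpda, a lipid droplet protein that restrains lipolysis, averaged 231 against 146 TPM and was higher in 4 of 5 pairs (0.58 ± 0.24).

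Other well-known targets were lower on average or differed in direction between animals. Vegfa, the main angiogenic factor, measured 34.4, 52.05, 22.02, 3.19 and 14.9 TPM in hypoxia and 56.1, 52.7, 10.8, 33.4 and 60.6 TPM in normoxia. It was far below its normoxia value in both controls, level in KO-94, lower in KO-84 and higher in KO-179. The pooled change was −0.95 ± 0.50 (SE; limma adjusted p = 0.651), the knockout-labelled pairs alone gave 0.09, and the control pairs alone −2.50. The difference between the genotypes' changes was 2.58 ± 0.60 (SE; limma adjusted p = 0.733). Hmox1, the haem-degrading enzyme, was lower in 4 of 5 pairs (10.2, 17.98, 17.3, 2.46 and 19.1 TPM in hypoxia and 20.4, 30.6, 35.99, 22.9 and 13.6 TPM in normoxia; −1.001 ± 0.41). Car9, the pH-regulating carbonic anhydrase, and Adm, adrenomedullin, were low and lay on both sides of 0. Their changes by animal were −0.32, 0.18, −0.99, 3.89 and −0.36 for Car9 and 2.06, −0.33, 0.26, −2.30 and 2.08 for Adm. The transcript of HIF-1α itself, Hif1a, measured 13.1, 45.6, 17.6, 16.2 and 29.2 TPM in hypoxia and 42.4, 52.3, 17.7, 24.1 and 32.9 TPM in normoxia, lower in all 5 pairs though by very little in KO-179 (−0.51 ± 0.27). Epas1, which encodes HIF-2α, was lower in 4 of 5 pairs (−0.68 ± 0.34; 2.51 against 4.24 TPM). Of the 11 oxygen sensor and HIF subunit genes tested, 2 were higher and 9 lower on average (median −0.23, or −0.15 without WT-280 and −0.11 without KO-84).

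**Figure D2:**
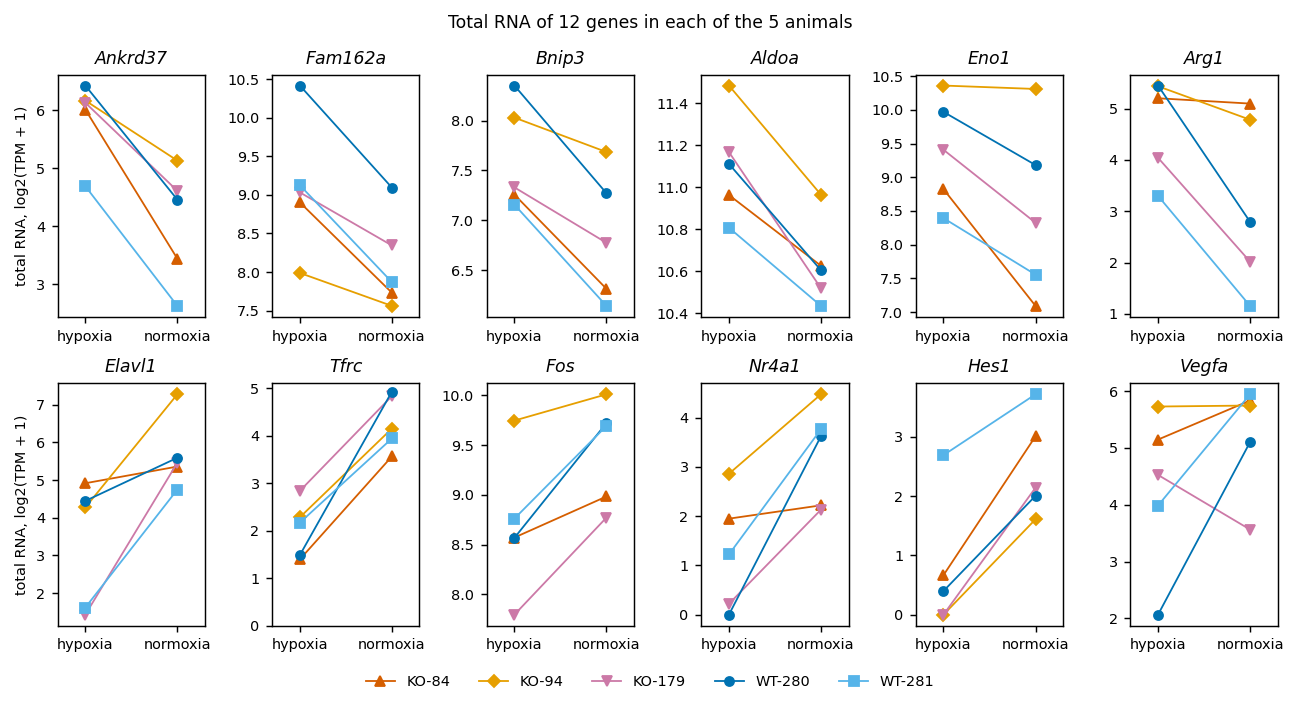
Total RNA level, as log2(TPM + 1), of 12 genes in hypoxia and normoxia; each line joins the libraries of 1 animal, the axes differ between panels and do not all start at 0. Ankrd37, Fam162a, Bnip3, Aldoa, Eno1 and Arg1 slope down toward normoxia in all 5 animals, Elavl1, Tfrc, Fos, Nr4a1 and Hes1 slope up in all 5, and the lines of Vegfa cross.

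Glycolysis genes were on the higher side by a smaller margin. Of 26 glycolysis and glucose uptake genes tested, 16 were higher and 10 lower on average (median 0.19, or 0.26 after quantile normalization). In all 5 pairs 4 were higher and 1 was lower (2.41% and 7.02% of all genes). The median was 0.01 without WT-281, and 0.20 without WT-280. The 4 members higher in every pair were Aldoa, Eno1, Gapdh and Tpi1, and the member lower in every pair was the hexokinase gene Hk3 (−0.46 ± 0.18; 81.6 against 106 TPM). Aldoa, the aldolase that splits fructose bisphosphate, measured 1996, 2866, 2300.4, 2212 and 1792 TPM in hypoxia and 1579.7, 1998, 1466, 1556 and 1384 TPM in normoxia. Its changes were small and even over the animals (0.34, 0.52, 0.65, 0.51 and 0.37), and the fitted change was 0.48 ± 0.11 (SE; limma adjusted p = 0.651). Eno1, enolase, measured 452, 1315, 679, 1003 and 335 TPM in hypoxia and 135, 1269, 319.9, 579.9 and 187 TPM in normoxia. KO-94 was high and nearly level, KO-84 changed most, and the fitted change was 0.90 ± 0.21 (SE; limma adjusted p = 0.651). Its near-identical copy Eno1b stayed at or under 1.01 TPM in all libraries.

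Gapdh, whose step yields NADH, measured 112, 304, 124, 163 and 126 TPM in hypoxia and 48.3, 141, 91.8, 132 and 89.1 TPM in normoxia (0.70 ± 0.18), and the groups overlapped because its level differed between animals. Tpi1, triose phosphate isomerase, averaged 644 against 489 TPM in hypoxia and normoxia (0.57 ± 0.18). Ldha, the lactate dehydrogenase that regenerates NAD, and Pgk1, phosphoglycerate kinase, were higher in 4 of 5 pairs (0.53 ± 0.17 and 0.54 ± 0.19), with KO-94 the exception in both. The glucose transporter Slc2a1 was higher in 3 of 5 pairs (0.25), the hexokinases Hk1 and Hk2 in 2 and 3 of 5 (0.33 and −0.18), and Pfkfb3, which makes the activator of phosphofructokinase, in 1 of 5 (−0.80). KO-94 also had the highest normoxia level of Eno1, Tpi1, Ldha, Pgk1 and Pkm among the 5 animals.

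Immediate early genes lay mostly on the lower side. Of 25 tested, 2 were higher and 23 lower on average (median −0.56; −0.52 after quantile normalization), 12 were lower and 0 higher in all 5 pairs (7.02% and 2.41% of all genes), and 13 were lower at an unadjusted p under 0.05 (4.88%). Without WT-280 the split was 5 higher to 20 lower (median −0.48), and without KO-84 it was 2 to 23 (−0.60). The list median was below 0 in every animal, at −0.24, −0.33, −0.47, −1.09 and −0.53, deepest in WT-280, whose median over all genes was −0.42. The 12 members lower in every pair were Fos, Ier5, Nr4a1, Klf2, Fosb, Zfp36, Btg2, Klf6, Junb, Fosl2, Atf3 and Jund.

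The start regions of Fos and Nr4a1 are shown for the cyclic AMP response element, through which CREB and related factors are known to act on both genes. Capitals mark its half-site TGACG on either strand (CGTCA when read on the other), searched after the full palindrome was found in neither window. Fos lies at chr12:85473640-85473939 (plus strand, 2 matches) and Nr4a1 at chr15:101266596-101266895 (plus strand, 4 matches), in RefSeq windows of GRCm38.p6.
Fos: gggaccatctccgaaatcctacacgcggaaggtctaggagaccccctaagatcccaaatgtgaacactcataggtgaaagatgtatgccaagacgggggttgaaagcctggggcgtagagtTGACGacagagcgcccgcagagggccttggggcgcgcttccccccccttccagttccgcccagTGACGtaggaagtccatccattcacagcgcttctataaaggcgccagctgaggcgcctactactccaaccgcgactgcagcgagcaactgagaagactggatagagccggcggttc
Nr4a1: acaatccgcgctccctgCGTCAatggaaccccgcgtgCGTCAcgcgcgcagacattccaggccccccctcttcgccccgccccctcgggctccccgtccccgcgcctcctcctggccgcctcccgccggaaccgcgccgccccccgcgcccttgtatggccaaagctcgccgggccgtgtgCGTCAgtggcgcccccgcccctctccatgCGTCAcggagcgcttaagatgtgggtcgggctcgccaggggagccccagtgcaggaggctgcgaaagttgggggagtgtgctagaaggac
The half-site stood in 13 of 20 matched immediate early genes (65%), in 36.3% of matched genes tested and in 23.05% of all genes with a window.

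Fos, a subunit of the AP-1 factor, measured 379, 857, 221, 378 and 433 TPM in hypoxia and 505, 1029.5, 436, 842 and 826 TPM in normoxia. Each animal was lower in hypoxia, although KO-94 in hypoxia stayed above every other normoxia value, and the change was −0.75 ± 0.16 (SE; limma adjusted p = 0.651). Nr4a1, an orphan nuclear receptor that restrains inflammatory genes in macrophages, measured 2.86, 6.26, 0.164, 0 and 1.33 TPM in hypoxia and 3.66, 21.2, 3.38, 11.3 and 12.6 TPM in normoxia. It was listed at 0 in the hypoxia library of WT-280 and close to 0 in that of KO-179, while KO-84 was nearly level (changes −0.27, −1.61, −1.91, −3.62 and −2.54). Fitted over the 5 pairs this was −1.99 ± 0.47 (SE; limma adjusted p = 0.651). Fosb, a partner of JUN like Fos, measured 0, 0.102, 0, 0 and 0.247 TPM in hypoxia and 2.22, 0.853, 0.351, 4.80 and 5.43 TPM in normoxia, and so was at or near 0 in all hypoxia libraries (−1.55 ± 0.37). It passed the filter of 1 TPM in 2 libraries through normoxia libraries alone. Its direction is therefore not a result, although it counts among the lower members of the list.

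Zfp36 encodes tristetraprolin, which binds AU-rich elements and speeds mRNA decay. It measured 167, 370.2, 112, 183 and 126 TPM in hypoxia and 196, 498, 173, 390.4 and 256 TPM in normoxia, with the groups overlapping through KO-94 and WT-280 (−0.68 ± 0.16). Klf2, a factor that keeps macrophages quiescent, measured 39.3, 58.7, 38.4, 59.6 and 33.3 TPM in hypoxia and 55.4, 89.8, 61.4, 99.6 and 68.4 TPM in normoxia (−0.70 ± 0.17), and only WT-280 and KO-94 reached the normoxia range. Klf10, a factor induced by TGF-beta that is not on the list, measured 30.5, 109, 19.4, 19.01 and 25.8 TPM in hypoxia and 60.5, 147, 30.6, 37.2 and 45.2 TPM in normoxia (−0.75 ± 0.18). Ier5, a regulator of heat shock factor 1, measured 47.8, 127, 45.5, 45.7 and 43.3 TPM in hypoxia and 82.9, 204, 64.3, 83.3 and 69.6 TPM in normoxia (−0.69 ± 0.15). In Klf10 and Ier5 the level of KO-94 stood above that of the other animals under both conditions. The phosphatase gene Dusp1 averaged 111 against 244 TPM in hypoxia and normoxia (−0.92 ± 0.28) and was lower in every animal but KO-84. Egr1 was close to level (−0.15 ± 0.20; 57.7 against 64.4 TPM), and Myc was higher in 4 of 5 pairs (0.68 ± 0.48).

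Inflammatory messengers split by gene. Of 23 cytokine and chemokine genes tested, 11 were higher and 12 lower on average (median −0.16; −0.02 after quantile normalization and −0.08 without WT-280). Cxcl2, a neutrophil attractant, measured 151, 15.5, 76.1, 83.96 and 409 TPM in hypoxia and 210.4, 37.8, 94.9, 291 and 673 TPM in normoxia, lower in all 5 pairs (−0.90 ± 0.22; limma adjusted p = 0.651). Tnf, the tumour necrosis factor gene, measured 13.3, 26.3, 36.3, 30.7 and 51.6 TPM in hypoxia and 39.7, 44.97, 32.1, 73.7 and 70.4 TPM in normoxia, lower in every animal but KO-179 (−0.75 ± 0.26; limma adjusted p = 0.651). Both have AU-rich mRNAs, and the part of such elements in the direction of these genes was not tested. The more abundant monocyte attractants lay the other way, with Ccl2 at 3021 against 1972 TPM on average in hypoxia and normoxia (0.30 ± 0.23) and Ccl7 at 1069.6 against 609.5 TPM (0.41 ± 0.27), each higher in 4 of 5 pairs.

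The genes of iron uptake and iron export were both lower in all 5 pairs, while the ferritin transcripts were not. Tfrc, the transferrin receptor that takes up iron, measured 1.63, 3.87, 6.15, 1.80 and 3.50 TPM in hypoxia and 10.8, 16.8, 27.6, 29.4 and 14.37 TPM in normoxia. The groups did not overlap, since the highest hypoxia value lay below the lowest normoxia value, and the drop was greatest in WT-280 (changes −2.17, −1.87, −1.997, −3.44 and −1.77). The fitted change was −2.25 ± 0.33 (SE; limma adjusted p = 0.348), and without WT-280 it was −1.95. Slc40a1, ferroportin, the cell's iron exporter, measured 8.85, 16.5, 11.3, 9.63 and 12.3 TPM in hypoxia and 20.9, 36.2, 33.5, 15.6 and 30.8 TPM in normoxia. Only KO-94 in hypoxia and WT-280 in normoxia crossed, and the change was −1.13 ± 0.23 (SE; limma adjusted p = 0.651). Slc11a2, the transporter that moves iron out of endosomes, was lower in all 5 pairs as well (−0.87 ± 0.34; 20.8 against 32.3 TPM). The ferritin chains Fth1 (0.06 ± 0.10) and Ftl1 (0.40 ± 0.19) were higher in 4 and 3 of 5 pairs. Of 18 iron genes tested, 6 were higher and 12 lower on average (median −0.29), a split near that of all genes tested (36.95% and 63.05%). Of these, 4 were lower and 0 higher in all 5 pairs (7.02% and 2.41% of all genes), and without WT-280 the median was −0.09.

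Rnasek, Zbtb7a and Ccnl1 had, with Tfrc, the smallest adjusted p-values among the lower genes. Rnasek, a small membrane protein tied to the vacuolar proton pump, measured 18.4, 55.9, 146, 9.29 and 90.4 TPM in hypoxia and 79.9, 150.3, 372, 24.7 and 322 TPM in normoxia. Its level differed widely between animals, and its changes were even (−2.06, −1.41, −1.34, −1.32 and −1.82; fitted −1.59 ± 0.18, limma adjusted p = 0.115). The gene overlaps a long noncoding RNA gene, Gm40191. Zbtb7a, a zinc-finger repressor, measured 29.4, 24.2, 8.83, 17.6 and 12.01 TPM in hypoxia and 51.5, 73.02, 27.7, 49.7 and 36.6 TPM in normoxia. KO-84 changed least (−0.79, −1.55, −1.54, −1.45 and −1.53), and the fitted change was −1.37 ± 0.21 (limma adjusted p = 0.348). Ccnl1, cyclin L1, which partners kinases that act on splicing, measured 51.8, 105, 47.4, 65.3 and 80.1 TPM in hypoxia and 109, 159, 80.1, 139 and 157 TPM in normoxia (−0.89 ± 0.16; limma adjusted p = 0.465), and its groups overlapped through KO-94 in hypoxia and KO-179 in normoxia. Tra2b, a splicing activator, was lower in all 5 pairs too (−0.87 ± 0.25; 41.9 against 75.6 TPM), though by little in WT-280. Of 25 genes of splicing kinases and their partners, 5 were higher and 20 lower on average (median −0.21), with 4 lower in all 5 pairs (7.02% of all genes).

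Among the remaining leading genes, Cat, catalase, measured 80.8, 135, 78.04, 29.5 and 103 TPM in hypoxia and 146, 178, 109, 87.7 and 198 TPM in normoxia (−0.84 ± 0.19), and WT-280 had the lowest value of each condition. Nsun5, which methylates ribosomal RNA, measured 9.97, 9.42, 4.61, 6.64 and 12.6 TPM in hypoxia and 14.2, 22.9, 16.1, 19.2 and 26.9 TPM in normoxia; its groups did not overlap (−1.14 ± 0.26). It shares its locus with Pom121, which changed by −0.59 and was lower in all 5 pairs as well. Ilf2, a subunit of an RNA-binding complex, measured 14.39, 32.5, 11.2, 2.44 and 5.21 TPM in hypoxia and 33.03, 39.1, 27.7, 20.7 and 17.9 TPM in normoxia (−1.38 ± 0.34). KO-94 was nearly level, and the Ilf2 gene overlaps Snapin, which changed by −0.36. On the higher side, Mcub, which damps the mitochondrial calcium uniporter, measured 101, 125, 92.1, 192 and 69.997 TPM in hypoxia and 50.5, 86.6, 36.99, 69.8 and 28.4 TPM in normoxia (1.10 ± 0.18; limma adjusted p = 0.408). Pofut2, an O-fucosyltransferase of the endoplasmic reticulum, averaged 66.6 ± 34.5 TPM in hypoxia and 32.9 ± 15.6 TPM in normoxia (1.05 ± 0.27), Tspan32, a tetraspanin of blood cells, 25.2 ± 10.03 TPM in hypoxia and 10.9 ± 6.33 TPM in normoxia (1.23 ± 0.29), and Cd300lf, an inhibitory receptor of myeloid cells, 50.8 ± 13.4 TPM in hypoxia and 30.4 ± 5.78 TPM in normoxia (0.70 ± 0.18). Tmem53 averaged 7.87 ± 4.18 TPM in hypoxia and 2.34 ± 1.56 TPM in normoxia (1.36 ± 0.36). Rnase4, a secreted ribonuclease, averaged 242 ± 104 TPM in hypoxia and 164 ± 73.9 TPM in normoxia (0.57 ± 0.13), and the gene Ang, at the same locus, changed by 0.17. These 30 leading genes, 15 a side, were taken as those with the smallest p among genes moving one way in all 5 pairs at 5 TPM or more, of 246 such genes higher and 666 lower, so their direction is not itself a result.

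**Figure D3:**
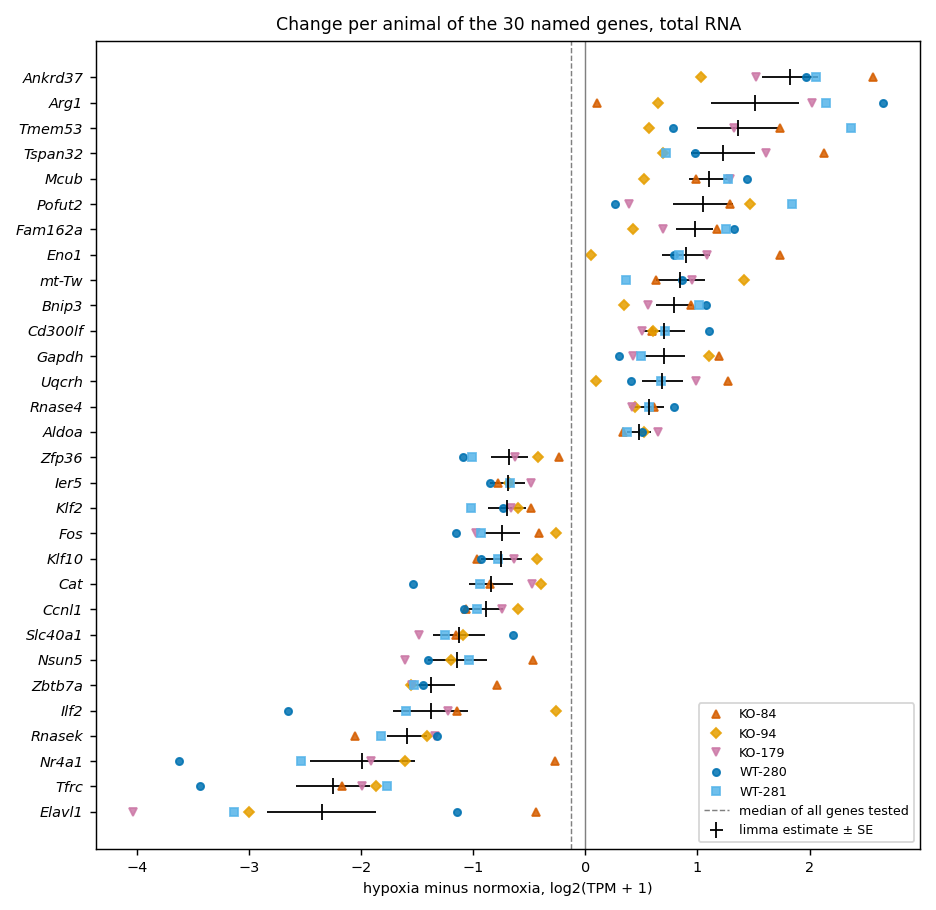
Hypoxia minus normoxia on the log2(TPM + 1) scale for the 15 leading genes on each side, with 1 marker per animal and the limma estimate ± SE in black; the dashed line is the median of all genes tested (−0.13). All markers of a gene lie on 1 side of 0 because the genes were chosen so, and the spread between animals is widest for Elavl1, Nr4a1, Arg1 and Ilf2.

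Hes1 and Id1, targets of Notch and BMP signalling that hold back differentiation, were lower in every animal. Hes1 measured 0.587, 0, 0, 0.318 and 5.46 TPM in hypoxia and 7.05, 2.05, 3.41, 3.01 and 12.2 TPM in normoxia. It was listed at 0 in hypoxia in KO-94 and KO-179 and was above 1 TPM only in WT-281, whose hypoxia value exceeded most normoxia values (−1.74 ± 0.32; limma adjusted p = 0.57). Id1 measured 7.44, 7.79, 14.49, 76.7 and 12.3 TPM in hypoxia and 16.98, 39.3, 23.1, 108 and 25.4 TPM in normoxia, and WT-280 stood far above the other animals in both (−1.08 ± 0.28; limma adjusted p = 0.651). All 9 Id and Notch pathway genes tested were lower on average (median −0.51), 4 of them in all 5 pairs (7.02% of all genes), and all 9 were also lower without WT-280 and without KO-84.

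Targets of ATF4, the factor of the amino acid and integrated stress response, were mostly lower. Of 25 tested, 4 were higher and 21 lower on average (median −0.41; −0.25 after quantile normalization), against 36.95% and 63.05% of all genes. In all 5 pairs 1 was higher and 6 were lower (2.41% and 7.02% of all genes), and 18 were lower without WT-280 (median −0.24). Psph, the last enzyme of serine synthesis, measured 70.3, 50.7, 47.2, 39.2 and 42.1 TPM in hypoxia and 83.3, 66.9, 93.6, 67.96 and 78.6 TPM in normoxia. Its groups overlapped through KO-84 (−0.65 ± 0.18). The Psph gene overlaps Cct6a, which changed by −0.22 and was lower in all 5 pairs. Slc3a2, the heavy chain of amino acid transporters, averaged 236 against 320.5 TPM in hypoxia and normoxia (−0.44 ± 0.13), and Chac1, which degrades glutathione, 14.7 against 25.4 TPM (−0.89 ± 0.37). Nupr1, a stress-induced chromatin protein, was the exception in every pair (328, 163, 339, 375 and 332 TPM in hypoxia and 208, 84.99, 282, 213 and 307 TPM in normoxia; 0.56 ± 0.16). Antioxidant genes of NRF2 lay the same way as the ATF4 targets, with 5 higher and 18 lower of 23 (median −0.21, or −0.11 without WT-280), among them Txnrd1, thioredoxin reductase (−0.94 ± 0.33; 25.9 against 52.9 TPM), although KO-84 was higher.

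Mitochondrially encoded mRNAs were lower on average for all 13 genes (median −0.76; 12 of 13 after quantile normalization), 6 of them in all 5 pairs (7.02% of all genes). Their summed share of the library was 2.29 ± 0.66% in hypoxia and 3.24 ± 0.92% in normoxia (SD, n = 5 each), lower in 5 of 5 pairs (exact sign-flip permutation p = 0.0625, the smallest 5 pairs allow). The size rested on 2 animals: the list median was −1.37 in KO-84 and −1.35 in WT-280, and −0.12, −0.37 and −0.10 in KO-94, KO-179 and WT-281. Without WT-280 the median over the list was −0.46, with 2 genes higher and 11 lower, and without KO-84 it was −0.57, with 1 higher and 12 lower. These are the animals of the normoxia library with the highest and the hypoxia library with the lowest mitochondrial share, and the part of library quality in the result was not tested. mt-Nd2, a core subunit of complex I, measured 1783, 577, 1702, 1166 and 3386 TPM in hypoxia and 4613, 762, 2423, 2980.3 and 3748 TPM in normoxia (−0.76 ± 0.20; limma adjusted p = 0.651). mt-Nd3, of the same complex, measured 30.02, 4.03, 25.3, 12.1 and 78.7 TPM in hypoxia and 135, 6.83, 51.8, 42.1 and 80.6 TPM in normoxia (−1.11 ± 0.31), almost level in WT-281. The mitochondrial tRNA row mt-Tw, which adjoins mt-Nd2, was higher in all 5 pairs (0.84 ± 0.22; 42.1 against 25.4 TPM); a tRNA is short, and poly(A) libraries are not made to measure it.

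Nuclear genes of the respiratory chain did not follow the mitochondrial ones. Of 45 tested, 35 were higher and 10 lower on average, by a median of 0.10 (0.07 after quantile normalization and 0.05 without WT-280). Higher in all 5 pairs were 2 (2.41% of all genes), Ndufb8 of complex I (0.30 ± 0.14) and Cox5b of complex IV (0.12 ± 0.11). Atp5a1 of the ATP synthase was lower in all 5 (−0.31 ± 0.16), as were 7.02% of all genes. Uqcrh, the hinge subunit of complex III and a leading gene that is not on the list, measured 438, 167, 457, 314 and 286 TPM in hypoxia and 181, 156, 231, 236 and 178.9 TPM in normoxia, with KO-84 and KO-179 highest in hypoxia (0.69 ± 0.18). Within complex II, Sdhd was higher (0.39 ± 0.15; 286 against 222 TPM) and the catalytic subunit Sdha lower (−0.42 ± 0.17; 55.2 against 68.3 TPM), each in 4 of 5 pairs. The subunits known to be exchanged in hypoxia, Ndufa4l2 and Cox4i2, were higher in 4 of 5 pairs (1.28 ± 0.59 and 1.09 ± 0.52), from low levels (12.4 and 5.04 TPM in hypoxia, against 7.26 and 2.01 TPM in normoxia).

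Class II antigen presentation genes lay mostly on the higher side, and the members named here were at low levels. Of 10 genes tested, 8 were higher and 2 lower on average (median 0.45, or 0.58 after quantile normalization). In all 5 pairs 2 were higher (2.41% of all genes). H2-DMb1, a chain of the peptide editor H2-DM, measured 12.1, 17.997, 9.08, 25.2 and 5.65 TPM in hypoxia and 9.55, 16.1, 5.73, 7.34 and 2.58 TPM in normoxia, and WT-280 changed most (0.72 ± 0.31; limma adjusted p = 0.651). H2-DMa, its partner chain, averaged 15.2 against 7.53 TPM (0.90 ± 0.46). Cd74, the invariant chain, measured 15.5, 12.2, 11.5, 11.9 and 11.2 TPM in hypoxia and 10.98, 7.65, 7.91, 10.6 and 10.995 TPM in normoxia (0.35 ± 0.25). H2-Aa, a chain of the class II molecule I-A, measured 4.27, 2.38, 1.68, 0 and 0 TPM in hypoxia and 0, 0.346, 0, 0 and 0 TPM in normoxia, so it was listed at 0 in all 4 control libraries. It passed the filter of 1 TPM in 2 libraries through hypoxia libraries alone. Its direction is therefore not a result, although it counts among the 8 higher members and in the median. The list median was 0.38, 0.44 and 0.86 in the knockout-labelled animals and 0 in each control. A member listed at 0 in both libraries of an animal, as H2-Aa was in each control, enters this median as a change of 0. H2-DMb1, present in every library, changed by 0.31, 0.15, 0.58, 1.65 and 0.89, more in the controls. Among 16 class I genes, 8 were higher and 8 lower (median −0.05), or 12 and 4 without WT-280 (median 0.13). The immunoproteasome subunit Psmb9 was higher in all 5 pairs (0.48 ± 0.17; 52.6 against 38.2 TPM) while the chaperone Calr (−0.39 ± 0.15; 249.5 against 316 TPM) and the subunit Psmb10 (−0.30 ± 0.16) were lower in all 5.

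In the other lists fewer than 6 members moved one way in all 5 pairs. Lysosomal genes split into 16 higher and 17 lower of 33 (median −0.01, or 0.03 without WT-280 and −0.06 without KO-84), although Atp6v1a, a subunit of the proton pump (−0.56 ± 0.16; 249 against 354 TPM), and Lipa, the acid lipase (−0.53 ± 0.16; 344 against 473 TPM), were lower in all 5 pairs. Of 35 cell cycle genes 29 were lower on average (median −0.24), against 63.05% of all genes, with Aurkb, a mitotic kinase, at −0.79 ± 0.27 (23.3 against 34.2 TPM) and Hmgb2, a chromatin protein of dividing cells, at −0.65 ± 0.23 (32.5 against 48.4 TPM). Interferon-stimulated genes had 11 higher and 17 lower of 28, a split near that of all genes (median −0.21, or −0.06 without WT-280 and after quantile normalization), and Cmpk2, a mitochondrial nucleotide kinase, was lower in all 5 pairs (−0.89 ± 0.27). Oxygen-dependent demethylases had 4 higher and 15 lower of 19 (median −0.27), but 8 and 11 without WT-280 (median −0.12), and a median of −0.08 after quantile normalization. The smallest p-values among them were those of Jmjd1c (−0.44 ± 0.20) and Phf2 (−0.68 ± 0.33). The list of AU-rich element binding proteins had 2 higher and 13 lower of 15 (median −0.22, or −0.13 without WT-280). Of its members, Elavl1, Zfp36 and Pcbp1, the last a poly(C)-binding protein, were lower in all 5 pairs (7.02% of all genes). Heat shock proteins had 3 higher and 10 lower of 13 (median −0.20, or −0.12 without WT-280 and −0.07 after quantile normalization). The mitochondrial chaperone Hspd1 was lower (−0.53 ± 0.18) and the cytosolic Hspa8 higher (0.34 ± 0.13) in all 5 pairs. Cholesterol genes split into 14 and 14 of 28 (median −0.01; 0.18 after quantile normalization and 0.02 without KO-84), with Apoe, the lipid carrier, at 0.48 ± 0.19. Chaperones of the endoplasmic reticulum had 10 higher and 13 lower of 23 (median −0.11; −0.007 after quantile normalization and −0.05 without KO-84), and cytosolic ribosomal proteins 15 higher and 32 lower of 47 (median −0.06; 35 higher and 12 lower without WT-280).

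**Figure D4:**
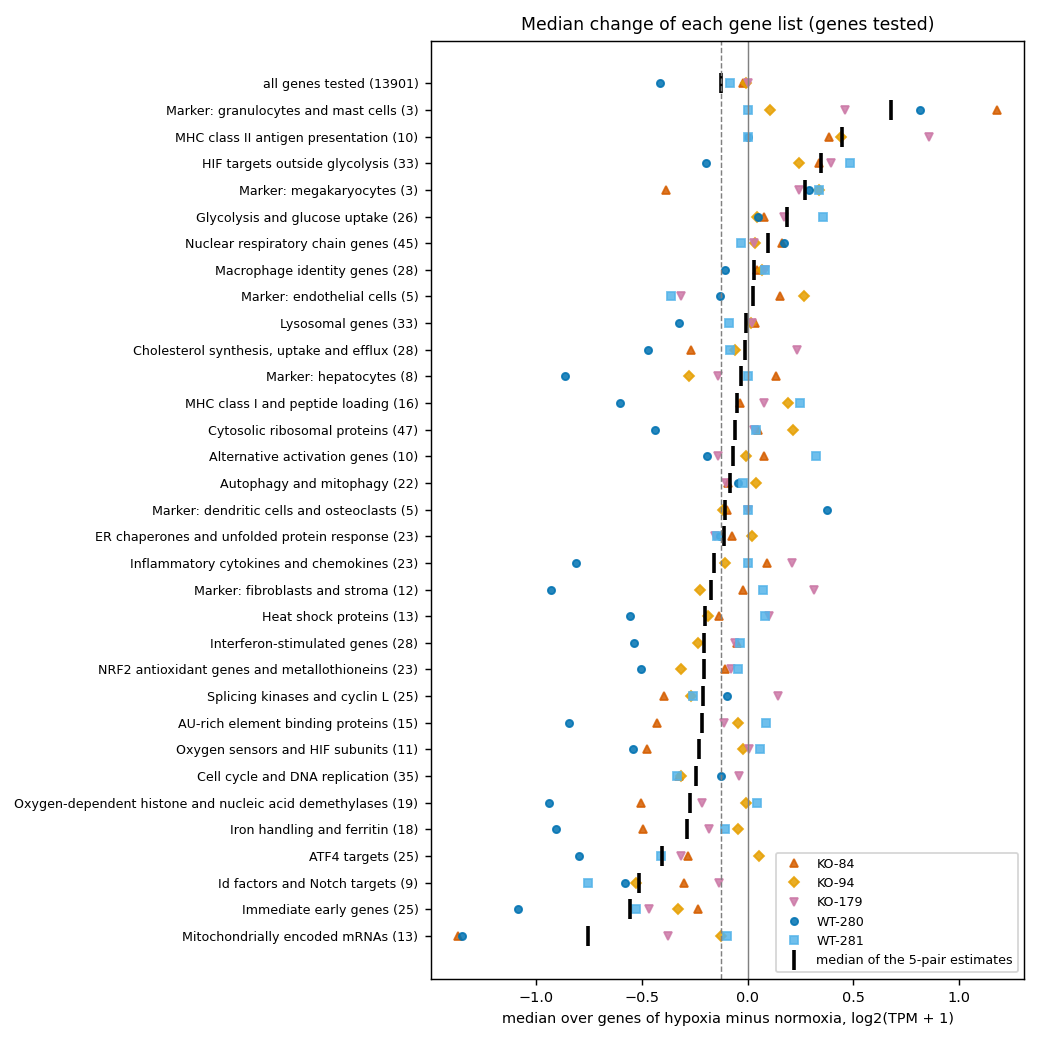
Median of hypoxia minus normoxia on the log2(TPM + 1) scale over the tested members of each gene list (number in brackets), with 1 marker per animal, the median of the 5-pair estimates as a black bar, 0 as a solid line and the median of all genes (−0.13) as a dashed line. Immediate early, Id and Notch, mitochondrially encoded, iron, NRF2, cell cycle and interferon-stimulated genes lie below 0 in all 5 animals, glycolysis lies above 0 in all 5, and WT-280 is the lowest marker in many lists; the black bar changes side of 0 after quantile normalization for autophagy, alternative activation, class I, cholesterol, hepatocyte, and dendritic cell and osteoclast genes.

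Macrophage identity genes were near level as a list (19 higher and 9 lower of 28, median 0.03). Lyz2 measured 6432, 8426, 6064, 11120.4 and 8527 TPM in hypoxia and 3199.9, 7836, 5106, 9127 and 6549.7 TPM in normoxia, higher in all 5 pairs (0.41 ± 0.14), and C1qb, of the complement starter C1q, was higher in all but WT-280, where it was level (0.42 ± 0.15). Mertk, a receptor for dying cells, was lower in all 5 (−0.50 ± 0.30; 7.95 against 10.3 TPM), and Stab1, a scavenger receptor, in 3 of 5 (−0.44 ± 0.28).

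Markers of other cells were examined because a change in culture makeup would move them. Of 15 erythroid markers 2 were tested, and their sum lay between 0 and 4.68 TPM in hypoxia and between 0 and 4.36 TPM in normoxia, with Epor seen in KO-94 alone (0, 3.43, 0, 0 and 0 TPM in hypoxia and 0, 2.6004, 0, 0 and 0 TPM in normoxia) and Hba-a1, a globin gene, above 0 in 1 library of each condition. Of 11 lymphocyte markers 1 was tested, Cd79b, a B-cell receptor chain, which measured 28.96, 69.99, 26.5, 28.4 and 5.04 TPM in hypoxia and 17.4, 47.97, 7.46, 17.1 and 3.56 TPM in normoxia, higher in all 5 pairs (0.81 ± 0.26), while Cd79a, Ms4a1 and Pax5 were too low to test. Of 15 granulocyte and mast cell markers 3 were tested, all higher on average; their sum lay between 2.94 and 37.7 TPM in hypoxia and between 0 and 20.1 TPM in normoxia. S100a8, a calcium-binding protein of neutrophils and monocytes, made up most of it on average (0.98 ± 0.38), Prtn3, a granule protease, gave 0.68 ± 0.39, and Mpo and Elane were too low to test. The megakaryocyte list held 3 tested genes of 8, dominated by Pf4, a chemokine whose cell source these bulk libraries cannot show. Pf4 measured 10192, 2117, 8806, 16095 and 16874 TPM in hypoxia and 9567, 1608, 7438, 13164 and 13365 TPM in normoxia (0.27 ± 0.10).

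Stromal markers were present: 12 of 13 were tested, 5 higher and 7 lower (median −0.17, or −0.03 without WT-280), and their sum lay between 174 and 734 TPM in hypoxia and between 233 and 1090 TPM in normoxia. Thy1, a surface protein of fibroblasts, measured 1.36, 0.266, 1.28, 0 and 6.32 TPM in hypoxia and 6.12, 0.228, 3.18, 4.24 and 7.74 TPM in normoxia (−1.01 ± 0.41), and Tagln, a smooth muscle actin-binding protein, averaged 120.4 against 157 TPM (−0.35 ± 0.17). Of 12 hepatocyte markers 8 were tested, 4 higher and 4 lower (6 and 2 without WT-280, 2 and 6 without KO-84); the sum was highest in KO-94 (432 TPM in hypoxia and 378 TPM in normoxia). Most of it was Trf, transferrin (119.8 against 110.0 TPM on average in hypoxia and normoxia; −0.06 ± 0.18), while Alb averaged 1.75 against 2.15 TPM and Apoa2 (−0.68 ± 0.35) and Fgb (−0.26 ± 0.26) averaged under 1 TPM. Of 11 endothelial markers 5 were tested (3 higher, 2 lower), with Vwf at −0.78 ± 0.42 and Kdr at 0.46 ± 0.34. Of 12 dendritic cell and osteoclast markers 5 were tested (2 higher, 3 lower), with Dcstamp at 0.59 ± 0.38 and Acp5 at 0.42 ± 0.51. The part of these cells in the changes above was not tested.

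Pooling both genotypes rests on their changing alike, so the difference of their changes was fitted too. Knockout-labelled minus control, 0 of 13901 genes passed (0%), with a smallest adjusted p of 0.619, and 891 had an unadjusted p under 0.05 (6.41%), 730 in the direction of a higher change in knockout-labelled animals (5.25%) and 161 the other way (1.16%). After quantile normalization these were 414 and 355. Leaving out WT-281, so that WT-280 stood alone for the controls, gave 1998 genes at an unadjusted p under 0.05. Of the leading genes, Nr4a1 (mean change −1.26 in knockout-labelled and −3.08 in control animals) and Ilf2 (−0.88 and −2.13) had the largest differences on the lower side, at 1.82 ± 0.77 and 1.25 ± 0.57 (SE; limma adjusted p = 0.764 for each). Ankrd37 (1.71 and 2.01), Rnasek (−1.60 and −1.57) and Aldoa (0.50 and 0.44) were close.

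Ribosome-bound RNA from the same lysates gave 0 of 13522 genes past the threshold (0%; smallest adjusted p 0.888), 705 at an unadjusted p under 0.05 (5.21%), of which 430 were higher (3.18%) and 275 lower (2.03%), and a median gene at 0.02. On average 6987 of all genes tested in this fraction were higher and 6535 lower. Of the 15 leading higher genes, 13 were higher on ribosomes as well, 6 of them in all 5 pairs (3.45% of all genes), with a median of 0.52. Of the 15 leading lower genes, 12 were lower, 3 of them in all 5 pairs (2.8%), with a median of −0.40. The lysates are shared, so the fractions are not independent samples of the cultures. The hypoxia change in ribosome-bound minus that in total RNA passed for 0 of 13901 genes (0%), with 674 at an unadjusted p under 0.05 (4.85%). Of these, 470 had a higher change in ribosome-bound RNA (3.38%) and 204 a lower one (1.47%).

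Ankrd37 was as far apart on ribosomes, at 68.5, 71.8, 113, 128 and 56.1 TPM in hypoxia and 17.3, 53.7, 33.1, 7.45 and 18.4 TPM in normoxia (1.91 ± 0.43, against 1.83 ± 0.25 in total RNA). Bnip3 measured 110.2, 228, 249, 797 and 174 TPM in hypoxia and 57.6, 177, 97.1, 215 and 46.3 TPM in normoxia on ribosomes (1.28 ± 0.24, against 0.79 ± 0.16; difference 0.49 ± 0.23). Tfrc measured 0.746, 3.61, 0.730, 0.615 and 2.35 TPM in hypoxia and 3.45, 8.89, 14.8, 13.8 and 5.69 TPM in normoxia on ribosomes, lower in all 5 pairs (−1.97 ± 0.48, against −2.25 ± 0.33). Ccnl1 was lower in all 5 pairs there too (−0.94 ± 0.21, against −0.89 ± 0.16), as were Cat (−0.53 ± 0.17, against −0.84 ± 0.19) and Id1 (−1.26 ± 0.36, against −1.08 ± 0.28). Fos was lower in 4 of 5 pairs in that fraction (−0.40 ± 0.16, against −0.75 ± 0.16) and Nr4a1 likewise (−0.91 ± 0.46, against −1.99 ± 0.47).

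Some genes of the total RNA did not keep their place. Rnasek, first in total RNA, measured 836, 54.9, 575, 8.80 and 212 TPM in hypoxia and 72.7, 55.3, 63.1, 211 and 261 TPM in normoxia on ribosomes, with pairs on both sides (0.39 ± 0.98). Zbtb7a gave 0.44 ± 0.51 and Ilf2 0.10 ± 0.35 on ribosomes, and the differences from total RNA were 1.81 ± 0.55 and 1.48 ± 0.49 (SE; limma adjusted p = 0.873 for each). Uqcrh gave −0.45 ± 0.20, Mcub 0.32 ± 0.22 and Gapdh −0.04 ± 0.21, which differed from total RNA by −1.14 ± 0.30, −0.78 ± 0.24 and −0.74 ± 0.30 (SE; limma adjusted p = 0.873 for each). mt-Nd2 and mt-Nd3 were not lower on average in the ribosome-bound libraries (1.10 ± 1.29 and 0.50 ± 0.63), and of the 13 mitochondrial mRNAs 7 were higher and 6 lower there (median 0.08); EGFP-L10a is a cytosolic ribosomal protein, so mitochondrial mRNAs are not its cargo. By list, HIF targets kept a median of 0.61 (23 higher, 10 lower) and immediate early genes had −0.25 (8 higher, 17 lower). Class II genes had 0.30 (10 higher, 0 lower) and ATF4 targets −0.10 (8 higher, 17 lower). These splits are to be read against the 6987 genes higher and 6535 lower on average in that fraction.

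**Figure D5:**
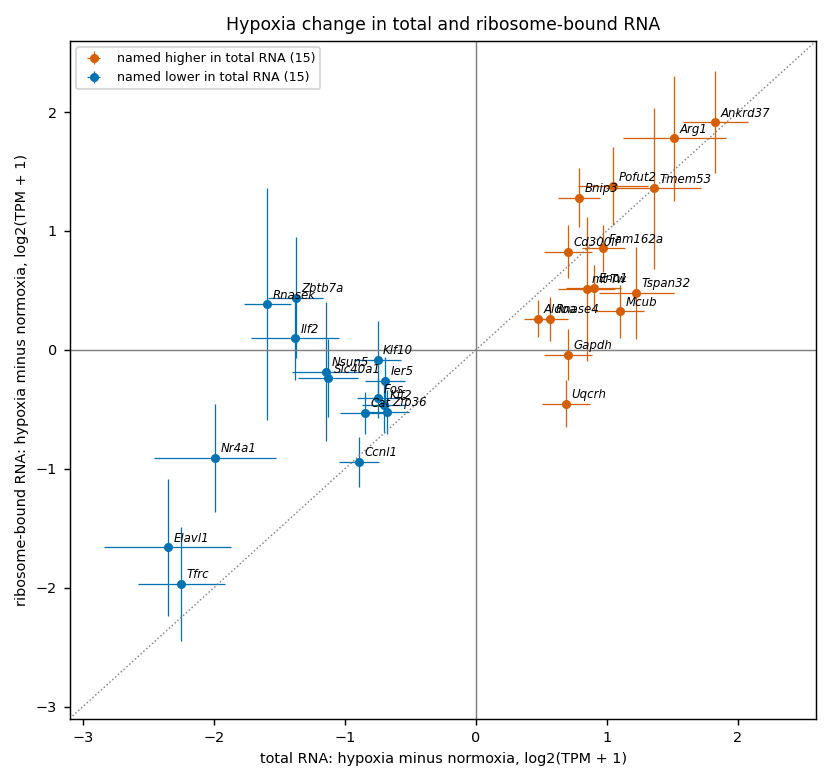
Hypoxia minus normoxia on the log2(TPM + 1) scale in ribosome-bound RNA (vertical) against total RNA (horizontal) for the 30 leading genes, with bars of ± SE; the dotted line marks equal changes. Ankrd37, Arg1 and Tmem53 lie on or near the line at the upper right. At the lower left Tfrc lies near the line and Elavl1 above it. Uqcrh, Gapdh, Zbtb7a, Rnasek and Ilf2 lie on the other side of 0 from their total RNA change.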

How the data were processed

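Poly(A) RNA was sequenced from whole lysates and from EGFP-tagged ribosomes of the same lysates. The authors deposited 1 table of TPM values per fraction, with 52636 genes and a sum of 1000000 TPM in every column. No source used here gives how they computed TPM; HISAT, DESeq2 and GRCm38 are named without versions or roles per the submitters' processing notes. Depth is unknown, since TPM keeps none, so low values carry an unstated counting error. 10 per-animal ratio columns per table were not used. Gene names were matched by ID (52403 found), and 26 of 27 symbols that had turned into dates were named from it. Of 79 named genes with a RefSeq position, 24 overlapped another gene and 12 a protein-coding one, and not each overlap is described here.

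Genes with at least 1 TPM in 2 or more of the 10 libraries of a fraction were tested on log2(TPM + 1) with limma 3.58.1 (R 4.3.3; mean-variance trend, animal as a block, two-sided, Benjamini-Hochberg over all genes tested, threshold 0.05). Some genes passed this filter through libraries of 1 condition alone, among them H2-Aa, Fosb and Apoa2, and their direction is not a result. The p-values set each change against the spread between 5 animals, with each gene's variance drawn toward that of genes at a similar level. Without the mean-variance trend the smallest adjusted limma p in total RNA was 0.644. Same-numbered libraries deviated together, with a correlation of 0.28 to 0.76 over genes, and the labels give the number as the animal's. The code was tested on simulated data. The genotype and fraction differences were fitted to within-animal differences, and single values used exact sign-flip permutation tests. Leading genes were the 15 of smallest p per direction with at least 5 TPM on average and the same sign in all 5 pairs, without clone-like names, and the 2 members of each list with the smallest p; Elavl1, Hif1a, Vegfa and Tnf were always named. Other list members named here were picked after their values were seen. Pairs, lists and motifs were chosen with earlier results of these data known. Alternatives were other scalings, filters, pseudocounts and blocks, and leaving out each animal.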

Additional observations from a re-analysis of the deposited data

Results flagged for a closer look

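In 8 of 121 sets of 5 per-animal values, 1 animal lay far from the other 4 by Dixon's ratio, where chance gives about 1 in 20. WT-280 stood apart in 4 of them. Its change in Tfrc was −3.44, its median over the macrophage identity genes −0.11, its median over the cytosolic ribosomal proteins −0.44 and its median over the dendritic cell and osteoclast markers 0.38. KO-84 stood apart in 2, with a change in Zbtb7a of −0.79, the smallest of the 5, and a median over the megakaryocyte markers of −0.38. The change in Cd79b was 1.70 in KO-179. The change in Epor was 0.30 in KO-94 and 0 in the other 4 animals, in which the gene was listed at 0.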

How the results depend on the processing

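In every alternative run, 0 genes passed the adjusted threshold in total RNA by limma. The counts at an unadjusted p under 0.05 moved. Against 318 higher and 679 lower, the fit with no replicate block gave 87 and 184, and in ribosome-bound RNA 269 in place of 705. Median centring gave 775 higher and 284 lower, and quantile normalization 396 lower. A filter of at least 5 TPM in 5 libraries, which tests fewer genes, gave 202 higher. With fewer animals, control pairs alone gave 119 higher and knockout-labelled pairs alone 286 lower. Leaving out each animal gave 209 to 363 higher (lowest without KO-84), 417 to 675 lower (lowest without WT-280), and 605 to 1998 genes for the genotype difference (highest without WT-281). Of 83 named genes, 78 kept their direction in each alternative run for them, up to 16 each; the stricter filter removed some genes. The other 5 turned: Rps6 (−0.0924), Kdr (−0.00297) and Acp5 (−0.39) in control pairs alone, Vegfa (0.0855) in knockout-labelled pairs alone, and Hba-a1 and Acp5 without KO-84. Over the fits that left out 1 animal, Hba-a1 spanned −0.61 to 0.26, Acp5 −0.13 to 0.83, and the difference in genes at 1 TPM −510.75 to 73.8, the last without WT-280. The causes of these moves were not tested further. List medians that moved beyond their spread were cholesterol without KO-179 (−0.29), endothelial markers without WT-280 (−0.36) and without WT-281 (0.39), dendritic cell and osteoclast markers without KO-179 (0.12), and those of glycolysis, autophagy and endoplasmic reticulum chaperones given with the lists. Depth is unknown and 5 pairs limit the precision of every value.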
